A study of Homo sapiens with 24 samples.

Results

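The 10 genes described here are the ID transcription factors ID1, ID2, ID3 and ID4, and the genes SMAD3, SMAD6, SMAD7, BAMBI, SKI and SKIL, which encode a signal transducer and inhibitors of the TGF-β and BMP pathways. They were chosen by symbol, and all 10 were found among the 22227 genes of the ligand tables and the 23028 genes of the siRNA tables. RNA-seq was performed in LNCaP cells, an androgen-responsive prostate cancer line. In the ligand experiment, cells kept in hormone-depleted medium were exposed to vehicle, to 10 μM enzalutamide (MDV in the sample names), an antiandrogen, or to 10 nM dihydrotestosterone (DHT), a natural androgen, with both agents sampled at 4 h and at 24 h. In the siRNA experiment, cells carrying a non-targeting siRNA (siControl) or an siRNA pool against GATA2 (siGATA2) spent 3 days in the same type of medium before 24 h of exposure to vehicle or to enzalutamide at 25 μM. Such medium is low in androgen, and how much androgen response remained in cells without DHT was not tested. The ligand experiment was analysed as 2 libraries for each condition and the siRNA experiment had 3, all of 1 cell line.

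The sample labels list 4 vehicle samples in the ligand experiment, but 3 of the 4 vehicle columns carry replicate number 1. These 3 columns differed from each other by a chi-square of 1.51 to 1.54 per gene, against 3.42 to 3.59 for each of them against replicate 2. The lower values still exceed sampling noise alone, so they do not settle whether the 3 columns are runs of 1 replicate. The preset rule was to sum such columns only if they differed by no more than sampling noise. In a departure from it, the columns were summed as replicate 1 by their number. The 4 columns as separate samples were run as an alternative. Totals of the 10 resulting ligand libraries ran from 38894876 to 59985287 estimated counts. The siRNA tables hold RPKM values whose sums ran from 301300 to 317933, and their smallest steps placed the depth of the libraries between 0.766 and 1 relative to the deepest. The 2 enzalutamide 4 h libraries stood further apart (chi-square of 9.32 per gene) than those of any other ligand condition (1.98 to 4.93). All 10 luminal prostate markers examined were detected in both experiments, and CD3E and PTPRC, which define T cells and leukocytes, stayed at 0 to 0.101 CPM (counts scaled to library size) and at 0 to 0.00736 RPKM. The 4 leukocyte markers together summed to at most 3.03 CPM and 12.3 RPKM, and 1 of them exceeded 1 CPM or 1 RPKM in every condition. In the ligand libraries the 6 fibroblast markers summed to at most 30.4 CPM and the 4 endothelial markers to at most 21.4 CPM. In bulk RNA, fewer cells of a type and less RNA per cell cannot be told apart.

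ID proteins have a helix-loop-helix domain but no DNA-binding region, so they pair with basic helix-loop-helix factors and keep them off DNA, and they are known for holding cells in an undifferentiated, proliferating state. The ID genes are among the best known direct targets of BMP signalling, in which activated receptors phosphorylate SMAD1, SMAD5 and SMAD9. TGF-β and activin receptors instead use SMAD2 and SMAD3. Both branches switch on their own inhibitors: SMAD6 and SMAD7 block receptors and receptor-activated SMADs, BAMBI is a decoy receptor without a kinase domain, and SKI and SKIL bind SMAD complexes and repress their target genes. TGF-β acts as a growth inhibitor in normal prostate epithelium.

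In the GENCODE annotation of GRCh38, ID1 lies at chr20:31605283-31606515, ID2 at chr2:8678845-8684453, ID3 at chr1:23557918-23559794 and ID4 at chr6:19837386-19840684. BAMBI lies at chr10:28677342-28682939, SKI at chr1:2228695-2310119, SKIL at chr3:170357678-170396835 and SMAD7 at chr18:48919853-48952052. SMAD6 (chr15:66702228-66782848) and SMAD3 (chr15:67063763-67195195) are neighbours on chromosome 15, with 280914 bases between them. ID3 and SMAD7 lie on the minus strand and the others on the plus strand, and all 10 are protein coding. The deposited tables were made on hg19, so these positions serve only to place the genes.

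The promoters of ID1, ID3 and BAMBI are shown because these genes had the widest ranges of level over the 9 conditions. The sequences are the 250 bases before the RefSeq start site (GRCh38.p14), 5′ to 3′ on the strand of the gene. The GENCODE genes given above start at other bases. The ID3 window lies wholly inside its GENCODE gene, and the BAMBI and ID1 windows overlap theirs in part. Distances below hold for the RefSeq start only. Capitals mark matches on either strand to any of 4 motifs. GGCGCC is a GC-rich element bound by SMAD1 and SMAD5, and CAGAC is known as the SMAD box. AGAACA is one side of the palindromic element found in steroid-responsive genes. The sequence AGATAA is recognised by factors of the GATA family. In these 3 windows no match overlaps another.
ID1, chr20:31605039-31605288, plus strand: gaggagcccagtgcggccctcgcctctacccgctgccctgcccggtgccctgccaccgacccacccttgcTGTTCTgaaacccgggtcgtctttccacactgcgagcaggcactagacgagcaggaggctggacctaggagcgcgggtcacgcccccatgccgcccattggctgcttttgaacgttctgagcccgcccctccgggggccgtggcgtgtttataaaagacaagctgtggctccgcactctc
ID3, chr1:23559502-23559751, minus strand: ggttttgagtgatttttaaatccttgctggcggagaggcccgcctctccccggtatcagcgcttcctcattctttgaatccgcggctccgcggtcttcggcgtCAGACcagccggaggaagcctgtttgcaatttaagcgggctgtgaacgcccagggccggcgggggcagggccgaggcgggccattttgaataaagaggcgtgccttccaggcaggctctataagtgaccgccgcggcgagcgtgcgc
BAMBI, chr10:28677271-28677520, plus strand: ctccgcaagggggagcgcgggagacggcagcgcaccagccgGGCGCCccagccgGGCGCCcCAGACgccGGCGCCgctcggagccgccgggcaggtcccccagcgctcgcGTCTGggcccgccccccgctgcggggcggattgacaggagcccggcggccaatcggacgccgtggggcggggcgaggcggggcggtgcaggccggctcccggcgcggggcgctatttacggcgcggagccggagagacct

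The BAMBI window held 3 copies of GGCGCC, which begin 209, 196 and 181 bases before the start site, with CAGAC matches at 189 and 140 bases. Its GC content was 81.2%, against 66% for ID1, 62% for ID3 and a median of 58% over all 35116 windows of the table. The match in the ID1 window begins 180 bases before the start and is the reverse complement of AGAACA, and that of ID3, a CAGAC, begins 147 bases before it. Over full windows, which add 50 bases after the start, GGCGCC was found for BAMBI, SKIL and SMAD3, and in 19.2% of all windows. CAGAC was found for 6 members (BAMBI, ID3, ID4, SKIL, SMAD3 and SMAD7) and in 45.3% of all windows. AGAACA was found for ID1 and SMAD6 and in 14.8% of all windows. AGATAA was found in no window of the 9 members matched to the table, against 10.3% of all windows. The 9 members had 15 windows in all, since some genes have several start sites, with 5 windows for SMAD3 and 3 for SMAD7. A member is listed if any of its windows held the motif, whereas the shares are of single windows. The member counts and the shares are therefore unlike measures. No window was matched for SKI. These matches describe letters and not binding.

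Levels were compared between genes as RPKM, which is scaled by transcript length. In siControl cells with vehicle, BAMBI was the most abundant member at 25.04 ± 0.355 RPKM (SD, n = 3), followed by SKI at 23.5 ± 0.742 and ID3 at 19.8 ± 1.68. The libraries of these 3 genes did not overlap. ID1 stood lower at 5.60 ± 0.697, SKIL at 4.42 ± 0.258, SMAD3 at 3.68 ± 0.147 and ID2 at 3.60 ± 0.182 RPKM, and SMAD3 and ID2 overlapped. SMAD6 (2.81 ± 0.153) and SMAD7 (2.75 ± 0.240) could not be ordered within their spread.

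ID4 was close to the detection limit throughout. Its counts in the ligand libraries were 0 to 4, too few for a test, and its RPKM in the siRNA libraries ran from 0.00733 to 0.0354, which corresponds to 1 to 5 steps of the smallest value seen. ID4 passed the low-value filter of the siRNA experiment and is included in the counts below, but its log2 values rest on these few steps and are not read as changes. The other 9 members passed the filters of both experiments, with between 109 (ID1) and 8362 (SKI) counts in a ligand library.

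**Figure D1:**
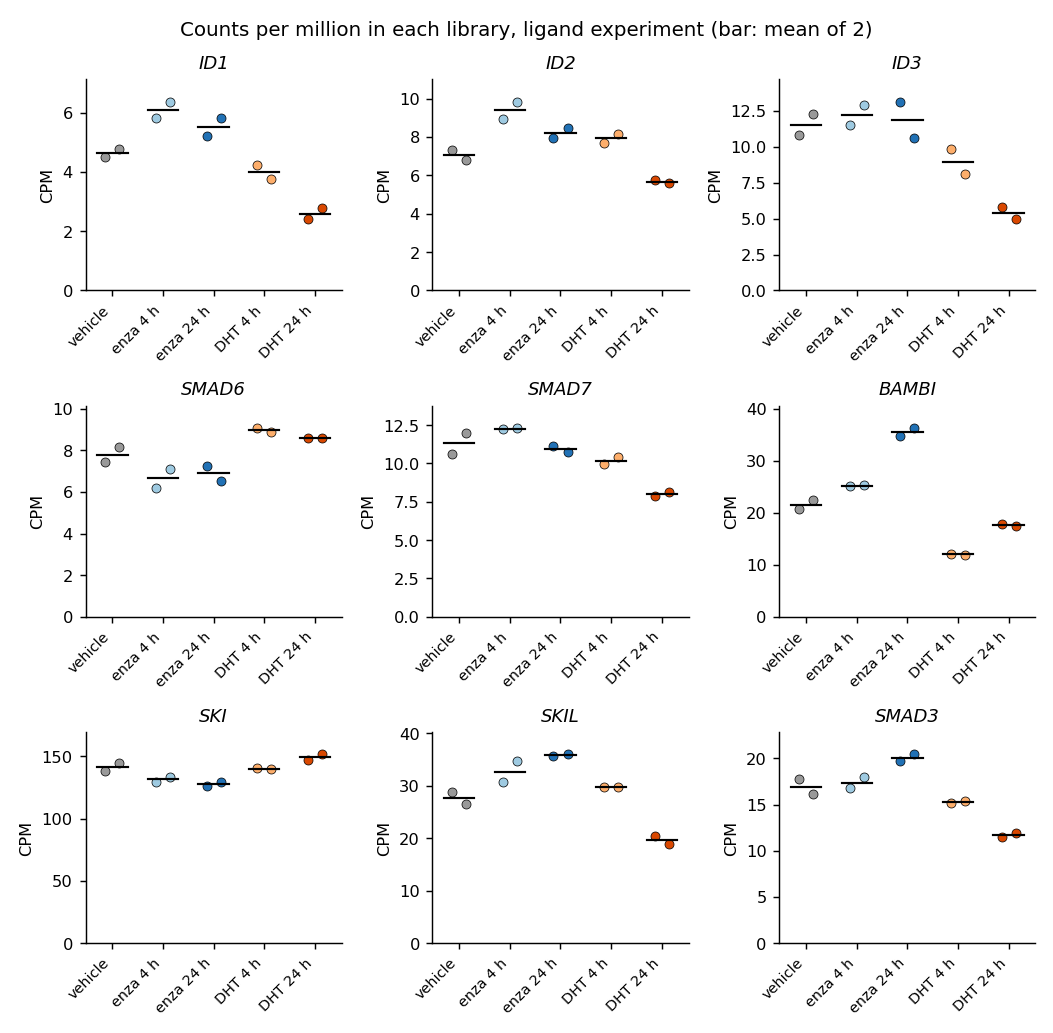
Level of each member in each ligand library as CPM, the counts scaled to library size (vertical axis from 0), by condition, with 1 point for each of the 2 libraries and a bar at their mean. BAMBI spans 11.9 to 36.2 CPM, with both DHT 4 h libraries lowest and both enzalutamide 24 h libraries highest, and DHT 24 h is the lowest condition of ID1, ID2, ID3, SMAD3, SMAD7 and SKIL.

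The first question was how an antiandrogen and an androgen changed these genes. BAMBI rose with enzalutamide and fell with DHT, and it was the member with the strongest response to enzalutamide at 24 h. The 3 expressed ID factors, SMAD3, SMAD7 and SKIL fell with DHT at 24 h. SMAD6 and SKI did not follow this pattern. All comparisons with vehicle share the same vehicle libraries, for which the labels give no time. Effects of a ligand and of time in culture therefore cannot be told apart in them. Changes are log2 fold changes with their standard error (SE) and Benjamini-Hochberg adjusted p from edgeR, called at 0.05.

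BAMBI was measured at 20.7 and 22.4 CPM in the vehicle libraries. Enzalutamide gave 25.2 and 25.3 CPM at 4 h and 34.7 and 36.2 CPM at 24 h, whereas DHT gave 12.1 and 11.9 CPM at 4 h and 17.8 and 17.5 CPM at 24 h. No condition overlapped another, with both enzalutamide times above vehicle and both DHT times below it. The rise with enzalutamide at 24 h was 1.65-fold (log2 0.72 ± 0.054, adjusted p = 2.78e-07), and BAMBI rose further from 4 h to 24 h (log2 0.49 ± 0.053, adjusted p = 1.64e-05). The fall with DHT was 1.79-fold at 4 h (log2 -0.84 ± 0.059, adjusted p = 6.17e-07) and 1.22-fold at 24 h (log2 -0.28 ± 0.057, adjusted p = 0.00106). BAMBI thus lay higher at 24 h than at 4 h of DHT (log2 0.55 ± 0.060, adjusted p = 6.4e-06), the only member called higher at the later time. These 5 BAMBI calls held under all 19 alternatives run for each comparison. At 4 h, 1 of 9 tested members fell with DHT, namely BAMBI, and none rose. In this comparison 6.77% of all 15555 genes tested were called, 4.66% higher and 2.11% lower.

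ID1, the ID factor most studied as a BMP target, had 4.49 and 4.77 CPM with vehicle, 2.41 and 2.78 CPM after 24 h of DHT and 3.77 and 4.24 CPM after 4 h. The 24 h libraries lay below all others, and the fall was 1.79-fold (log2 -0.84 ± 0.13, adjusted p = 0.000107). ID3, which is expressed alongside ID1 in many tissues, went from 10.8 and 12.3 CPM with vehicle to 5.78 and 5.00 CPM at 24 h of DHT, a 2.11-fold fall (log2 -1.08 ± 0.13, adjusted p = 1.75e-05). It was the only member past the study's threshold of a 2-fold change with an unadjusted p below 0.05, which 5.86% of all genes passed, 3.78% by a fall. ID2, which is also known to bind the retinoblastoma protein, had 6.78 and 7.33 CPM with vehicle and 5.58 and 5.74 CPM at 24 h of DHT (log2 -0.32 ± 0.092, adjusted p = 0.0106). The ID2 call was lost without DHT 24 h replicate 2 (adjusted p = 0.0504), without vehicle replicate 1 (adjusted p = 0.0955) and with DESeq2 (adjusted p = 0.0661).

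At 24 h of DHT, 7 of 9 tested members fell and none rose, against 50% of all genes called in either direction, 26.9% that rose and 23.2% that fell. Their median log2 change was -0.49, and that of all genes was 0.00. SMAD3, the transducer of TGF-β and activin signals, fell from 16.1 and 17.8 to 11.5 and 11.95 CPM (log2 -0.54 ± 0.069, adjusted p = 2.59e-05). SMAD7, which recruits ubiquitin ligases to the type I receptors, fell from 10.6 and 12.01 to 7.90 and 8.13 CPM (log2 -0.49 ± 0.078, adjusted p = 0.000167). SKIL, a corepressor that is degraded after TGF-β stimulation and then resynthesised, fell from 26.4 and 28.8 to 18.9 and 20.4 CPM (log2 -0.49 ± 0.069, adjusted p = 6.04e-05). In each of these the DHT libraries lay below both vehicle libraries. SKI (log2 0.08, adjusted p = 0.0932) and SMAD6 (log2 0.15, adjusted p = 0.193) did not pass the test. The 95% interval of the SMAD6 value was -0.05 to 0.35. Marker sums moved in this comparison too, and their part in these results was not tested. The luminal list went from 4168 to 4236 CPM with vehicle to 6522 to 6586 CPM, the endothelial list from 15.6 to 16.4 up to 20.7 to 21.4 CPM, the leukocyte list from 1.599 to 1.685 up to 3.00 to 3.03 CPM, and the fibroblast list from 26.3 to 26.4 down to 15.9 to 17.7 CPM. With DHT at 24 h, 1 marker of each of the last 3 lists exceeded 1 CPM.

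**Figure D2:**
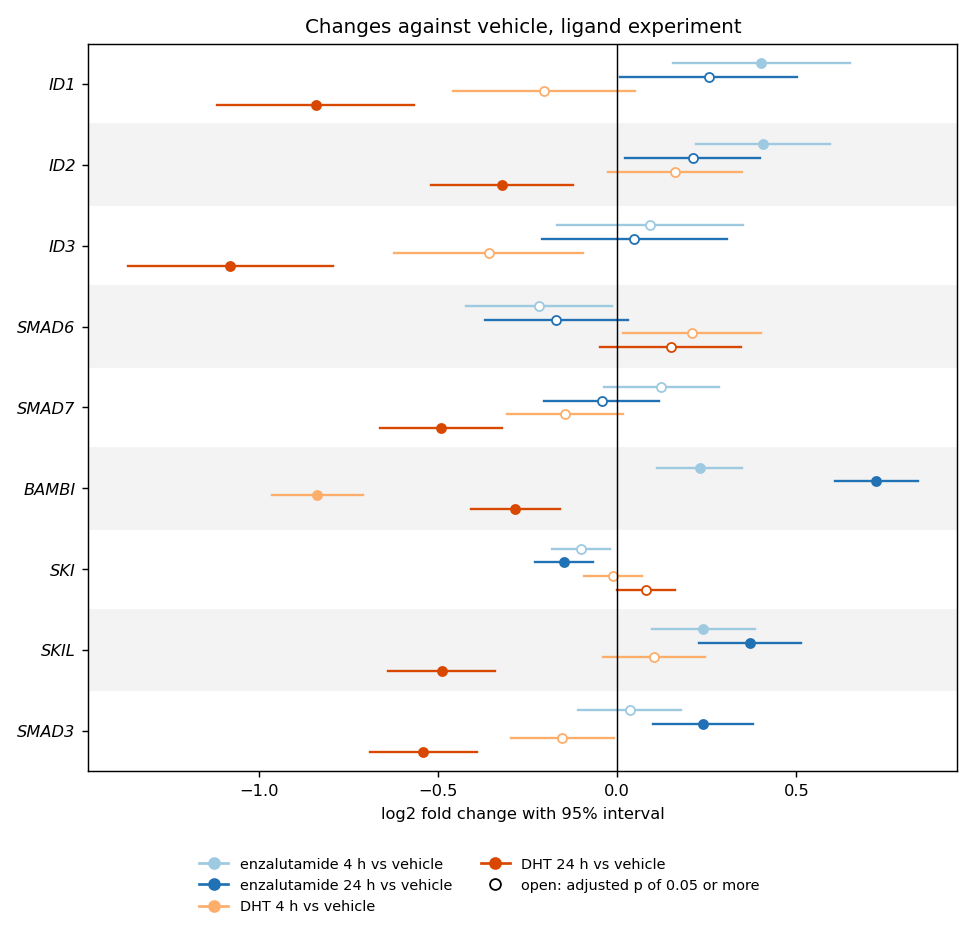
Log2 fold change of the 9 tested members against vehicle (horizontal axis) with 95% intervals, for enzalutamide and DHT at 4 h and 24 h, where filled points passed an adjusted p of 0.05 and open points did not. The DHT 24 h points of 7 genes lie left of 0, from -1.08 for ID3 to -0.28 for BAMBI, and the enzalutamide 24 h point of BAMBI lies furthest right at 0.72.

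Most of these genes were lower at the later time of DHT exposure. Between 4 h and 24 h, 6 members fell, ID3 by 0.72, ID1 by 0.64, SKIL by 0.59, ID2 by 0.48, SMAD3 by 0.39 and SMAD7 by 0.35 on the log2 scale (adjusted p from 1.06e-05 to 0.00242), while BAMBI moved up as given above. In this comparison 49.8% of all genes were called, 26.3% higher and 23.5% lower. With the prefix of the column names as a term, the SMAD7 difference was no longer called (log2 -0.27, adjusted p = 0.104). SKIL is an example of a late change, with 29.7 and 29.8 CPM at 4 h, above both vehicle libraries but not called (adjusted p = 0.448), and the lowest values of all conditions at 24 h.

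At 24 h of enzalutamide, 3 of 9 members rose and 1 fell, against 33.4% of all genes called, 16.4% that rose and 17% that fell. Besides BAMBI, SKIL rose to 35.7 and 35.95 CPM (log2 0.37 ± 0.065, adjusted p = 0.000747), and SMAD3 rose to 19.7 and 20.4 CPM (log2 0.24 ± 0.065, adjusted p = 0.0126). SKI, the founding member of the SKI corepressor family, fell from 138 and 145 to 126 and 129 CPM (log2 -0.15 ± 0.038, adjusted p = 0.00874). The BAMBI and SKIL calls held under all 19 alternatives. The SMAD3 call was lost without enzalutamide 24 h replicate 2 (adjusted p = 0.113), without vehicle replicate 2 (adjusted p = 0.117), with DESeq2 (adjusted p = 0.0682) and with the column prefix as a term (log2 0.09, adjusted p = 0.423). The SKI call was lost without enzalutamide 24 h replicate 1 (adjusted p = 0.0639) and without vehicle replicate 2 (adjusted p = 0.0581), so that 2 of 9 members were called without vehicle replicate 2.

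At 4 h of enzalutamide, 4 of 9 members rose and none fell, against 13.6% of all genes called, 6.94% that rose and 6.68% that fell. ID2 had 8.94 and 9.83 CPM (log2 0.41 ± 0.086, adjusted p = 0.00837) and ID1 had 5.83 and 6.36 CPM (log2 0.40 ± 0.11, adjusted p = 0.0342), each above both vehicle libraries. SKIL rose to 30.6 and 34.8 CPM (log2 0.24 ± 0.066, adjusted p = 0.0292) and BAMBI by 0.23 ± 0.055 on the log2 scale (adjusted p = 0.0156). These 4 calls were small and depended on single libraries. Without enzalutamide 4 h replicate 2, with only the 2 conditions in the model, or with the column prefix as a term, edgeR called 0 members, while 5, 4 and 4 had an unadjusted p below 0.05. DESeq2 called 2. Without vehicle replicate 1 or replicate 2 the counts were 2 and 1, and without either enzalutamide 24 h library they were 2. Both enzalutamide 4 h libraries carry the column prefix ZC2, which they share with 1 of the 3 summed vehicle columns and with DHT 24 h replicate 1. Both DHT 4 h libraries carry ZC1, and both enzalutamide 24 h libraries and DHT 24 h replicate 2 carry ZC3. The times of each ligand, and the ligands at 4 h, thus differ in prefix in all their libraries. In these comparisons prefix and condition can be separated only through libraries of other conditions. What the prefixes mark is not given in the sources used here. At 24 h, ID1 (5.23 and 5.81 CPM, log2 0.26, adjusted p = 0.105) and ID2 (7.93 and 8.47 CPM, log2 0.21, adjusted p = 0.0806) were above both vehicle libraries without passing the test.

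From 4 h to 24 h of enzalutamide, 2 of 9 members rose, BAMBI as given above and SMAD3 (log2 0.20 ± 0.065, adjusted p = 0.0361), and 24.6% of all genes were called, 11.7% higher. Only BAMBI was called with DESeq2, with the replicate block, with the prefix term, with the 2 conditions alone, and without any single DHT or enzalutamide 24 h library or enzalutamide 4 h replicate 1. Without enzalutamide 4 h replicate 2, SKIL was called as well (3 in all).

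Set directly against each other at 24 h, DHT and enzalutamide differed in all 9 tested members, 7 lower and 2 higher with DHT, where 64.9% of all genes were called, 33.6% lower and 31.3% higher. ID3 was 2.18-fold, ID1 2.14-fold and BAMBI 2.01-fold lower with DHT than with enzalutamide (log2 -1.13 ± 0.13, -1.10 ± 0.12 and -1.01 ± 0.055). SKIL, SMAD3, ID2 and SMAD7 were lower by between 1.82-fold and 1.36-fold. SMAD6, the inhibitor that acts mainly on BMP receptors, moved the other way: it had 8.62 and 8.59 CPM with DHT and 7.26 and 6.53 CPM with enzalutamide (log2 0.32 ± 0.092, adjusted p = 0.00813), with the vehicle libraries between them at 7.43 and 8.15 CPM. This SMAD6 difference was lost without enzalutamide 24 h replicate 2 (adjusted p = 0.0728). SKI was 1.17-fold higher with DHT (log2 0.23 ± 0.038, adjusted p = 0.000134). At 4 h, 5 of 9 differed, against 15.8% of all genes, 7.28% lower and 8.49% higher with DHT. BAMBI (log2 -1.07 ± 0.058), ID1 (log2 -0.61 ± 0.11), ID3 (log2 -0.45 ± 0.12) and SMAD7 (log2 -0.27 ± 0.075) were lower with DHT, and SMAD6 was higher (log2 0.43 ± 0.092, adjusted p = 0.00626). With the column prefix as a term, only BAMBI remained past the threshold at 4 h. Without DHT 4 h replicate 2 or enzalutamide 4 h replicate 2, 3 of the 9 were called, with ID3 (adjusted p = 0.240 and 0.116) and SMAD7 (adjusted p = 0.0945 and 0.0874) lost. The SMAD7 call was also lost without DHT 4 h replicate 1 (adjusted p = 0.204), without enzalutamide 4 h replicate 1 (adjusted p = 0.0568), with DESeq2 and with the 2 conditions alone.

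In the siRNA experiment the targeted gene was checked first. GATA2, a zinc-finger pioneer factor, had 77.0 to 86.1 RPKM in siControl cells and 46.6 to 54.3 RPKM in siGATA2 cells with vehicle, and 128 to 132 and 60.1 to 64.7 RPKM with enzalutamide. Every siGATA2 library lay below every siControl library. The reduction was 1.601-fold with vehicle and 2.08-fold with enzalutamide, so that GATA2 mRNA was reduced and not absent.

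**Figure D3:**
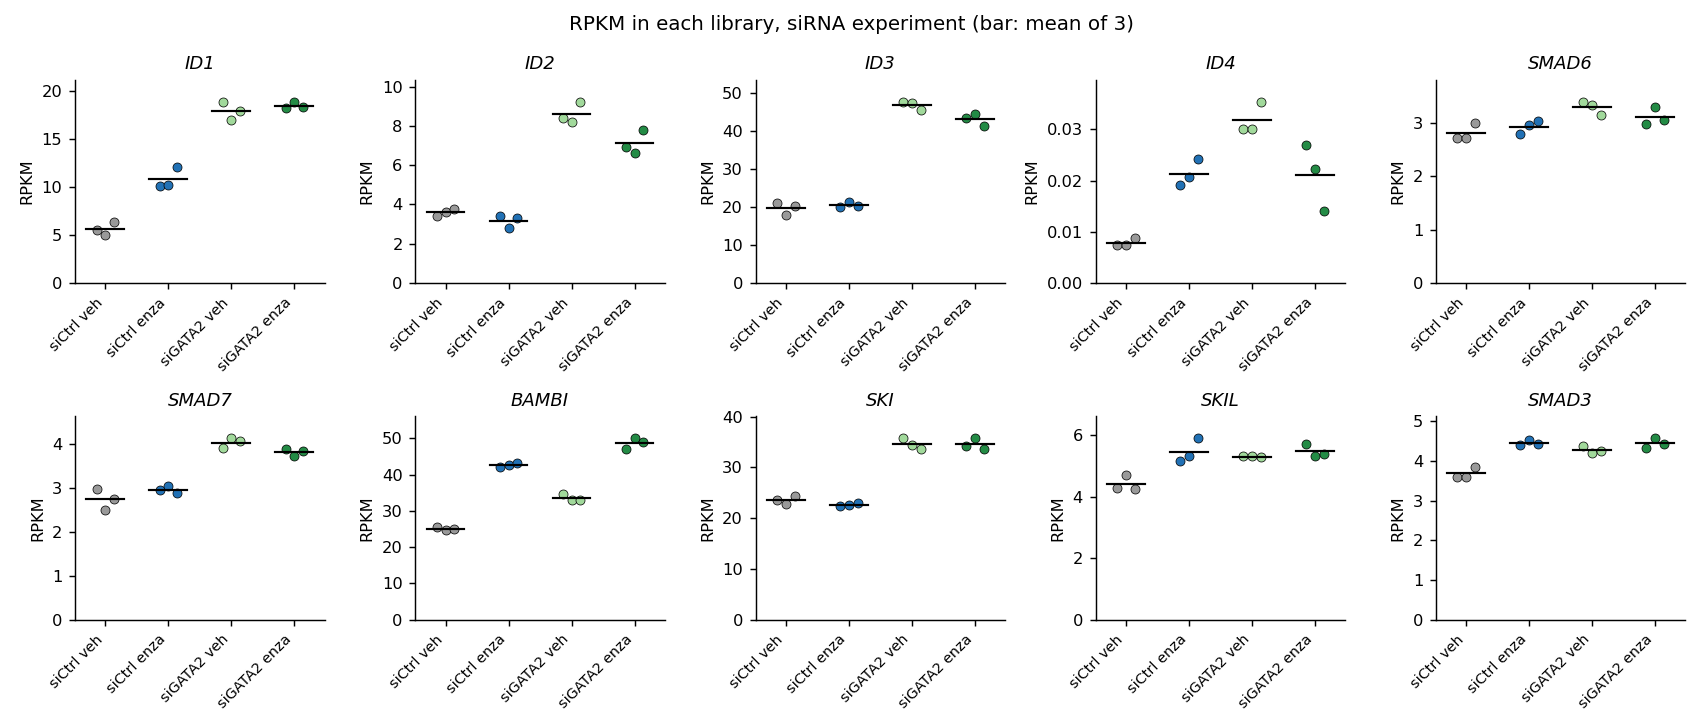
RPKM of each member in each siRNA library (vertical axis from 0) by condition, with 1 point for each of the 3 libraries and a bar at their mean. All siGATA2 libraries of ID1, ID2, ID3, SMAD7 and SKI lie above all siControl libraries, and ID4 reaches at most 0.0354 RPKM, near its smallest step.

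The second question was how GATA2 knockdown changed these genes and their response to enzalutamide. Without drug, all members were higher in siGATA2 than in siControl cells, with ID1, ID2 and ID3 raised more than 2-fold. The count was 10 of 10 called and higher, of which ID4 is near its floor, against 55.6% of all 20369 genes called in either direction, 24.2% that rose and 31.4% that fell. The median log2 change of the members was 0.48, and that of all genes was -0.03. Changes in this experiment are on the log2(RPKM + 0.1) scale, with SE and adjusted p from limma.

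ID1 had 4.97, 5.48 and 6.35 RPKM in siControl cells and 17.04, 18.0 and 18.8 RPKM in siGATA2 cells with vehicle. This 3.18-fold rise was the largest of any member (log2 1.67 ± 0.089, adjusted p = 7.02e-08). ID2 went from 3.40, 3.64 and 3.75 to 8.19, 8.41 and 9.24 RPKM, a 2.36-fold rise (log2 1.24 ± 0.086, adjusted p = 5.29e-07). ID3 went from 17.9, 20.2 and 21.2 to 45.5, 47.5 and 47.9 RPKM, a 2.38-fold rise (log2 1.25 ± 0.055, adjusted p = 1.9e-08). The libraries of the conditions were far apart in all 3 genes. After the knockdown ID3 stood above BAMBI (32.9 to 34.8 RPKM) and SKI (33.7 to 35.7 RPKM), and none of these ranges met the range of ID3. ID4 had 0.00733 to 0.00878 RPKM in siControl cells and 0.0300 to 0.0354 in siGATA2 cells, or 1 step against 4 to 5 steps of the smallest value.

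The inhibitors and SMAD3 rose by less. SKI went from 22.8 to 24.3 RPKM up to 33.7 to 35.7 RPKM (log2 0.55 ± 0.032, adjusted p = 1.46e-07), and SMAD7 from 2.51 to 2.99 up to 3.91 to 4.14 RPKM (log2 0.54 ± 0.057, adjusted p = 1.35e-05). BAMBI rose 1.34-fold (log2 0.42 ± 0.029, adjusted p = 4.64e-07). SKIL (log2 0.26 ± 0.055), SMAD6 (log2 0.22 ± 0.058) and SMAD3 (log2 0.21 ± 0.038) rose by at most 1.198-fold, with adjusted p of 0.00209, 0.00711 and 0.000664. All 10 calls held under every alternative that could be computed for them, 20 for each member and 19 for ID4.

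Other values moved with the knockdown and their part in these results was not tested. The luminal marker list summed to 1545 to 1617 RPKM in siControl cells and 839 to 857 RPKM in siGATA2 cells with vehicle, with KLK3, an androgen-induced gene, going from 765 to 816 down to 21.7 to 26.3 RPKM. KRT8 (102 to 112 and 191 to 198 RPKM) and KRT18 (110 to 119 and 169 to 174 RPKM) went up. Of the 4 leukocyte markers only CD68, which encodes a lysosomal protein, exceeded 1 RPKM, and it had 3.54 to 3.84 RPKM in siControl and 10.5 to 12.2 RPKM in siGATA2 cells, while CD3E was at 0 in all 12 libraries. Of the 6 fibroblast markers only COL1A1 exceeded 1 RPKM, and the list summed to 10.9 to 11.8 and 13.1 to 16.6 RPKM. The 4 endothelial markers summed to 0.954 to 0.996 and 1.27 to 1.31 RPKM, and the 3 basal markers summed to at most 0.113 RPKM.

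**Figure D4:**
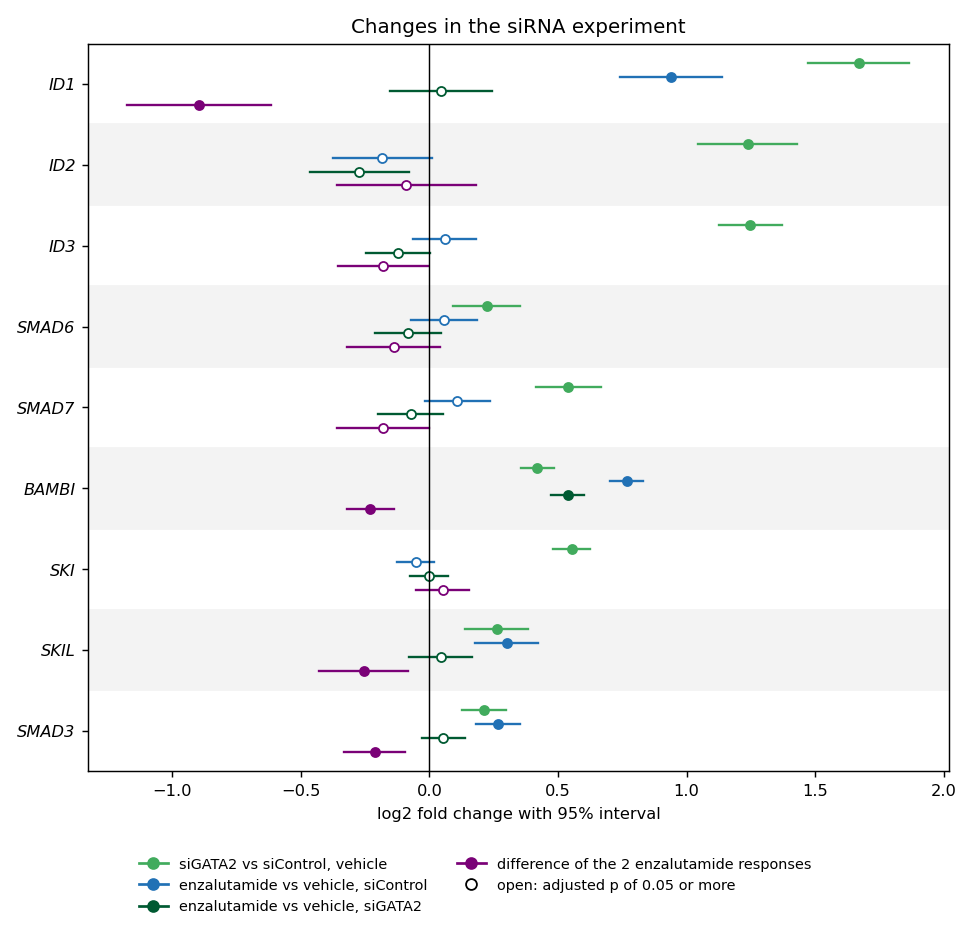
Log2 fold change of 9 members on the log2(RPKM + 0.1) scale (horizontal axis) with 95% intervals, for siGATA2 against siControl with vehicle, for enzalutamide against vehicle within each siRNA, and for the difference of the enzalutamide responses. Filled points passed an adjusted p of 0.05: ID1 rises by 1.67 with siGATA2, its enzalutamide response is 0.94 in siControl and 0.04 in siGATA2 cells, and BAMBI alone has filled points in all 4 comparisons.

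Under enzalutamide, 6 of 10 members were higher in siGATA2 than in siControl cells and none was lower, against 54.5% of all genes called, 26.3% that rose and 28.1% that fell. ID2 was 2.22-fold (log2 1.15 ± 0.086) and ID3 2.09-fold higher (log2 1.07 ± 0.055), close to their differences without drug. ID1 was 1.71-fold (log2 0.77 ± 0.089), SKI 1.52-fold, SMAD7 1.28-fold and BAMBI 1.14-fold higher. SMAD3 and SKIL, which differed without drug, did not pass the test here, and the 95% intervals of their log2 differences were -0.08 to 0.08 and -0.12 to 0.13. SMAD6 (log2 0.08, adjusted p = 0.263) did not pass the test, and ID4 had 0.0191 to 0.0242 RPKM in siControl and 0.0141 to 0.0269 RPKM in siGATA2 cells.

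In siControl cells 25 μM enzalutamide raised ID1, BAMBI, SKIL and SMAD3. With ID4, 5 of 10 members were called and none fell, against 42.1% of all genes called and 17.7% that rose. ID1 went from 4.97, 5.48 and 6.35 RPKM to 10.1, 10.2 and 12.1 RPKM (log2 0.94 ± 0.089, adjusted p = 1.52e-05), and BAMBI from 24.8, 24.9 and 25.4 RPKM to 42.2, 42.5 and 43.3 RPKM (log2 0.77 ± 0.029, adjusted p = 2.88e-08). SKIL rose 1.23-fold (log2 0.30 ± 0.055, adjusted p = 0.00136) and SMAD3 1.202-fold (log2 0.27 ± 0.038, adjusted p = 0.000253). ID2 (log2 -0.18, adjusted p = 0.116) and ID3 (log2 0.06, adjusted p = 0.443) did not pass the test. SMAD7 (log2 0.11, adjusted p = 0.162) was called with TMM factors applied to the RPKM values (log2 0.17, adjusted p = 0.0327) and without siControl vehicle replicate 1 (log2 0.17, adjusted p = 0.0274). At 10 μM for 24 h in the ligand experiment, the log2 values were 0.26 for ID1, 0.72 for BAMBI, 0.37 for SKIL and 0.24 for SMAD3. Dose, transfection, sequencer and unit all differ between these experiments, so their values are only set side by side.

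In siGATA2 cells enzalutamide changed only BAMBI among the members, 1 of 10, where 0.412% of all genes were called and 0.221% rose. BAMBI had 32.9, 32.9 and 34.8 RPKM with vehicle and 47.1, 48.9 and 50.1 RPKM with enzalutamide (log2 0.54 ± 0.029, adjusted p = 3.44e-05), and the call held under all 20 alternatives. ID1 stood at 17.04 to 18.8 RPKM with vehicle and 18.2 to 18.9 RPKM with enzalutamide (log2 0.04, 95% interval -0.15 to 0.24). ID2 was lower with enzalutamide at 6.61, 6.93 and 7.81 RPKM, with an unadjusted limma p of 0.00984 and an adjusted p of 0.269. Apart from ID4, the other 6 members had log2 values between -0.12 and 0.05.

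The difference between the responses of siGATA2 and siControl cells was tested directly as an interaction, in which 5 of 10 members were called, all with a smaller response in siGATA2 cells, against 25.8% of all genes called and 10.8% with a lower response. ID1 had the largest difference (log2 -0.90 ± 0.13, adjusted p = 0.000607), from a 1.92-fold rise in siControl to a 1.03-fold change in siGATA2 cells. For BAMBI the response was 1.70-fold in siControl and 1.45-fold in siGATA2 cells (log2 difference -0.23 ± 0.041, adjusted p = 0.00239). SMAD3 (log2 difference -0.21 ± 0.054, adjusted p = 0.0152), SKIL (log2 difference -0.26 ± 0.078, adjusted p = 0.0354) and the near-floor ID4 (adjusted p = 0.0084) completed the list. The SKIL call was lost under 9 of the 19 alternatives, which were the replicate block (adjusted p = 0.0672) and the removal of any of 8 libraries (adjusted p from 0.0526 to 0.0778). All 5 had a higher vehicle level in siGATA2 than in siControl cells, as given above, and for SMAD3 the enzalutamide levels were 4.39 to 4.54 RPKM in siControl and 4.34 to 4.57 RPKM in siGATA2 cells. The interaction is computed from the same 12 libraries as the comparisons above and adds no independent samples.

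**Figure D5:**
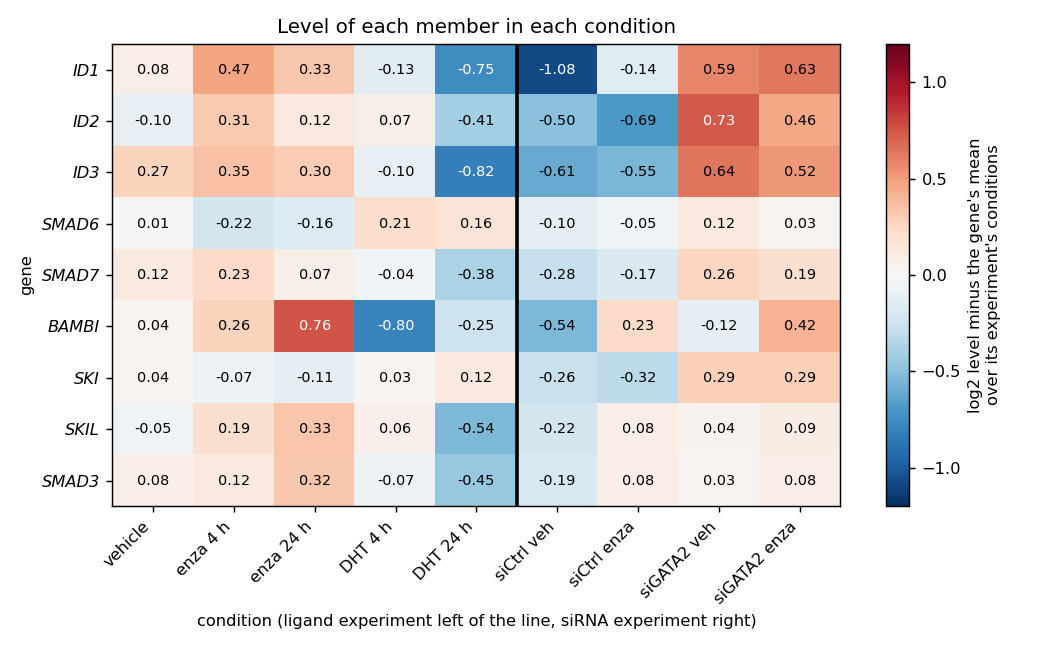
Level of the 9 tested members in each of the 9 conditions, as the log2 level minus the gene's mean over the conditions of its experiment (colour and printed value), with the ligand experiment left of the line and the siRNA experiment right of it. ID1, ID2, ID3 and SMAD7 lie below their means in DHT 24 h and in siControl cells, least so ID1 in siControl with enzalutamide (-0.14). BAMBI is highest in enzalutamide 24 h (0.76) and lowest in DHT 4 h (-0.80), and SMAD6 stays between -0.22 and 0.21.

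Over the 9 conditions, with levels centred within each experiment, ID1 varied most (a range of 1.71 on the log2 scale), followed by BAMBI (1.56), ID3 (1.46) and ID2 (1.42). SKIL, SMAD3, SMAD7, SKI and SMAD6 ranged over 0.86, 0.78, 0.64, 0.61 and 0.43. The closest pairs were ID3 and SMAD7 (Pearson r = 0.980), SMAD3 and SKIL (r = 0.956), ID1 and SMAD7 (r = 0.931) and ID1 and ID3 (r = 0.915). BAMBI did not follow ID2 closely (r = 0.238), and SMAD6 ran against BAMBI (r = -0.608) and SMAD3 (r = -0.550). These values describe 9 condition means that share controls and libraries, and no test was made of them. Among the 721 other genes with a range of at least 1 in both experiments, the patterns most like ID1 were RNF19A, CREBRF and FBXO32 (r = 0.973, 0.972 and 0.972). For BAMBI, with 722 candidates, they were SOX9 (r = 0.943), DHRS3 (r = 0.837) and ESRRG (r = 0.798).

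The other genes of the pathway are counted below beside the shares of all genes called in the same comparison, which were 24.2% higher and 31.4% lower in siGATA2 cells with vehicle, 26.9% higher and 23.2% lower with DHT at 24 h, and 16.4% higher and 17% lower with enzalutamide at 24 h. Among ligands, 3 of 14 rose and 5 fell in siGATA2 cells with vehicle, near these shares. GDF15, a stress-induced divergent member of the family, rose by 1.00 on the log2 scale, and the low-abundance BMP5 (0.74) and TGFB3 (0.61) rose as well. BMP7 fell by 1.76, INHBE, an activin subunit, by 1.33 and BMP6 by 1.22. With enzalutamide at 24 h, 2 of 7 tested ligands rose, INHBE by 1.04 and GDF15 by 0.76, and 2 fell, BMP6 by 0.75 and GDF11 by 0.17. With DHT at 24 h, 2 of 7 rose and 1 fell: BMP6 rose by 1.401 and GDF15 by 0.20, and INHBE fell by 1.46.

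Of the 14 receptors, 5 rose and 3 fell in siGATA2 cells with vehicle, where 24.2% of all genes rose and 31.4% fell. ACVR2A rose by 0.50, BMPR2, the type II BMP receptor, by 0.38 and TGFBR1 by 0.33, and TGFBR3 fell by 0.93, BMPR1B by 0.69 and AMHR2 by 0.58. With DHT at 24 h, 2 of 11 tested receptors rose (BMPR1B by 0.83 and TGFBR3 by 0.19) and 3 fell (BMPR2 by 0.39, ACVR1B by 0.22 and ACVR1 by 0.21). With enzalutamide at 24 h, 3 rose, ACVR2B by 0.23, ACVR1B by 0.22 and BMPR2 by 0.19, and BMPR1B fell by 0.16. Of the 5 other SMADs, 1 rose and 2 fell in siGATA2 cells with vehicle, against 24.2% and 31.4% of all genes. With DHT at 24 h 1 rose and 2 fell, against 26.9% and 23.2%. With enzalutamide at 24 h 1 rose and 0 fell, against 16.4% and 17%. SMAD1, which carries BMP signals, rose by 0.50 in siGATA2 cells and fell by 0.37 with DHT at 24 h. SMAD9 rose with DHT (0.25) and with enzalutamide (0.48) at 24 h and fell by 0.24 in siGATA2 cells.

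Genes known as TGF-β targets were counted as a further list, which shares COL1A1 with the fibroblast markers. In siGATA2 cells with vehicle 9 of 11 rose and none fell, with a median log2 change of 0.60, against 24.2% of all genes that rose and 31.4% that fell. CYR61 rose by 2.12, CTGF by 1.73 and CDKN2B, which encodes a cell cycle inhibitor, by 1.13. CTGF had a mean of 0.0101 RPKM in siControl cells, near the floor. With DHT at 24 h 2 of 9 tested targets rose and 5 fell (median log2 -0.28), against 26.9% and 23.2% of all genes: THBS1 rose by 0.98 and CYR61 by 0.26, and CDKN2B fell by 0.69, COL1A1 by 0.65 and LTBP2 by 0.59. With enzalutamide at 24 h 3 of 9 rose, CDKN2B by 0.89, LTBP2 by 0.45 and CDKN1A by 0.12, and none fell, against 16.4% and 17% of all genes.

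Of the intracellular modulators, 5 of 13 tested rose and 5 fell with DHT at 24 h, against 26.9% and 23.2% of all genes. PMEPA1, an androgen-induced gene whose product binds SMAD2 and SMAD3, had the largest rise, by 1.97 at 4 h and 1.91 at 24 h, and in siGATA2 cells with vehicle it fell by 1.62. In those cells 7 of 13 modulators rose, ZFYVE9 (0.46), WWP1 (0.41) and RNF111 (0.34) most, and 3 fell, against 24.2% and 31.4% of all genes. Of the secreted antagonists, 6 of 14 rose there, led by LEFTY2 (0.87), FSTL3 (0.84) and CHRD (0.70), and 2 fell, CHRDL1 by 1.04 and NOG by 0.57. With DHT at 24 h, 2 of 6 tested antagonists rose and 2 fell, against 26.9% and 23.2% of all genes. CHRD, which binds BMPs outside the cell, was among those that fell, by 1.15.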

How the data were processed

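LNCaP RNA-seq was analysed from 24 samples in 9 conditions. Per the labels, the authors aligned reads to hg19 with TopHat2 2.0 and quantified genes in Partek. For the ligand experiment they deposited estimated counts per gene, not normalized, which were rounded. For the siRNA experiment the authors deposited RPKM values, in files named as counts.

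Ligand counts were tested with edgeR 4.0.16 (quasi-likelihood, TMM, filterByExpr) in R 4.3.3, on 15555 genes in 5 conditions. Genes missing from a table were set to 0. RPKM values above 0 in at least 3 libraries (20369 genes) were tested with limma 3.58.1 with a variance trend on log2(RPKM + 0.1), which understates changes of low genes. Genes were called at a Benjamini-Hochberg adjusted p below 0.05 over all genes tested. A second rule used a fold above 2 with an unadjusted p below 0.05. The edgeR comparisons with vehicle and the limma comparisons were tested on simulated data with 200 changed genes. The other ligand comparisons and the alternatives were not simulated. Alternatives included DESeq2 1.42.0, other scalings, filters and pseudocounts, a replicate block and leaving out each library. The column name prefix as a term was added after seeing the data.

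The named genes are all 10 members, and from each pathway list at most 3 called genes each way by size of change. The members and lists were chosen with earlier results of these data known. Replicates are called biological in the labels, though nothing names separate passages, and p-values measure the spread between these samples. Strand use in counting is not given in the sources used here. Protein sequences were not used here. Figures were drawn in Python with matplotlib 3.10.9. The number of value columns not used is 0. The values of 1 gene of the marker lists are not reported here.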

Additional observations from a re-analysis of the deposited data

Results flagged for a closer look

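Effects of 1 treatment that differed between times or between siRNA backgrounds were listed by the test of the difference itself (adjusted p below 0.05), and no group had enough libraries for a test of outlying samples. Between 4 h and 24 h of enzalutamide, BAMBI differed by 0.49 and SMAD3 by 0.20 on the log2 scale. Between 4 h and 24 h of DHT, BAMBI differed by 0.55, and ID1 (-0.64), ID2 (-0.48), ID3 (-0.72), SKIL (-0.59), SMAD3 (-0.39) and SMAD7 (-0.35) were lower at 24 h. The enzalutamide response of siGATA2 cells was smaller than that of siControl cells for ID1 (-0.90), SKIL (-0.26), BAMBI (-0.23) and SMAD3 (-0.21). The value for ID4 (-0.29) rests on 1 to 5 steps of the smallest RPKM value. Among all genes, 24.6%, 49.8% and 25.8% were called in these 3 comparisons.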

How the results depend on the processing

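Of 66 calls of a member in a comparison, 51 held under every alternative run, and all 1273 alternative values of the called members kept their sign. At 4 h of enzalutamide the 4 calls became 0 with the column prefix as a term (added after seeing the data) or with only the 2 conditions in the model, 2 with DESeq2 and 0 to 4 on leaving out 1 library. From 4 h to 24 h of enzalutamide the 2 calls became 1 with the prefix term, DESeq2, only the 2 conditions or the replicate block, and 1 to 3 on leaving out 1 library. Between DHT and enzalutamide at 4 h the 5 calls became 1 with the prefix term and 3 to 7 on leaving out 1 library. At 4 h of DHT the 1 call became 2 without a filter on low counts and with only the 2 conditions, and at 24 h of enzalutamide the 4 calls became 2 to 4 on leaving out 1 library. The cause was not tested.

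Signs changed only for members that were not called. With TMM factors on RPKM, SKI with enzalutamide gave 0.0089 in siControl and 0.014 in siGATA2 cells, and SMAD3 between siRNAs under enzalutamide gave 0.0032. With the 4 vehicle columns as samples, SKI at 4 h of DHT gave 0.0052, and with the prefix term SKIL between DHT and enzalutamide at 4 h gave 0.017 and SMAD3 at 4 h of enzalutamide gave -0.062. On leaving out 1 library, ID3 ranged from -0.21 to 0.10 between enzalutamide times, from -0.13 to 0.18 at 24 h, from -0.010 to 0.17 at 4 h and from -0.0096 to 0.11 in siControl cells with enzalutamide. SKI ranged from -0.041 to 0.026 at 4 h of DHT and from -0.026 to 0.022 in siGATA2 cells with enzalutamide. SMAD3 ranged from -0.032 to 0.11 at 4 h of enzalutamide, SMAD6 from -0.041 to 0.15 between enzalutamide times and SMAD7 from -0.15 to 0.029 at 24 h of enzalutamide. Between siRNAs under enzalutamide, ID4 ranged from -0.039 to 0.038, SKIL from -0.034 to 0.060 and SMAD3 from -0.020 to 0.017.

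Same-numbered replicates did not deviate together (correlations from -0.103 to 0.0647). With so few libraries a condition, this cannot show whether the numbers mark pairs, and the main models did not pair them. With the replicate block the SKIL interaction was no longer called (adjusted p = 0.0672), and no count other than that between the enzalutamide times moved by over 1.5 times. With 2 libraries a condition in the ligand experiment, a lone library left after removal of the other is assumed to vary like the remaining conditions.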

Other observations

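The basic helix-loop-helix factors that ID proteins bind, and related HES and HEY genes, were also read in these tables. The list also holds CDKN2A, which is not a helix-loop-helix gene. In siGATA2 cells with vehicle, 1 of 12 tested genes of this list rose and 6 fell, with a median log2 change of -0.23, against -0.03 for all genes, of which 24.2% rose and 31.4% fell. TCF12 rose by 0.16. HES6, an inhibitor of HES1, fell by 0.85, the low-abundance MYOD1 by 0.57 and TCF3, which encodes the E12 and E47 proteins, by 0.50. With DHT at 24 h, 3 of 8 tested genes rose (HES6 by 1.19, HES1 by 0.73 and TWIST1 by 0.69) and 2 fell (TCF4 by 0.47 and TCF12 by 0.25), against 26.9% and 23.2% of all genes. With enzalutamide at 24 h, 1 of 8 rose (TCF12 by 0.17) and 1 fell (TCF3 by 0.29), against 16.4% and 17% of all genes. In siControl cells with 25 μM enzalutamide TWIST1 rose by 0.56 and 4 of 12 genes fell, with MYOD1 by 1.14, HEY1 by 0.92 and TCF4 by 0.41 the largest falls, against 17.7% of all genes that rose and 24.4% that fell.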
